A study of Mus musculus with 6 samples.

Results

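Rbpj encodes the DNA-binding factor through which Notch receptors act on their target genes. It was examined together with its pseudogene Rbpj-ps3 and 5 genes of the same pathway: the receptors Notch1 and Notch2, the coactivator Maml1, the protease Adam10 and the target gene Hes1. These 7 genes were taken by symbol from the 43629 genes of the count table. They were picked with the difference between the groups already known, so their values are given below as a description, with no test. Tumour-infiltrating T cells came from pooled subcutaneous tumours of B16-OVA, a mouse melanoma line that expresses ovalbumin, grown in C57BL/6 mice and harvested on day 14. Cells were sorted into L-Pha low and L-Pha high, with 3 libraries of each, by their binding of L-Pha (Phaseolus leucoagglutinin), a plant lectin that recognises branched N-glycans. The study asked how transcripts differed between cells with high and with low binding. The 2 groups shared strain, tumour and time. The design text describes the sorted cells as CD8+ and positive for the T cell receptor, while the extraction protocol names TCR beta and CD3. The age and sex of the mice, and whether libraries of the same group stem from different pools, are not given in the sources used here.

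Notch receptors are cell surface proteins that are cut when a neighbouring cell presents a ligand. ADAM10 makes a cut outside the membrane, gamma-secretase then cuts within it, and the freed intracellular domain enters the nucleus. There it joins RBPJ and a Mastermind protein such as MAML1 and switches on genes such as Hes1. Without that domain, RBPJ can sit on DNA with corepressors and hold the same genes down. Sugars added to the extracellular part of Notch tune its response to ligands. In T cells the pathway drives early development in the thymus and takes part in effector differentiation.

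Rbpj-ps3 is a processed pseudogene, a copy of a spliced messenger RNA that was inserted back into the genome. It lies on GRCm38 chromosome 6, 46529354 to 46530794, on the minus strand, within the span of Cntnap2 on the opposite strand, and overlaps none of the exons of Cntnap2. All 1441 bases of its annotated transcript aligned without a gap to bases 274 to 1714 of the Rbpj transcript Rbpj-201 (GENCODE M21), with 4 mismatches and 99.7% identity. That stretch begins at the first base of the second coding exon, ends at the last coding base before the stop codon and covers 91.3% of the coding sequence. The longest run without a mismatch was 638 bases. Read in the frame of Rbpj, the pseudogene held 0 stop codons in 480 codons, and 4 codons differed. The remaining 3745 bases of Rbpj-201, from the stop codon to its end, have no counterpart in the annotated pseudogene. The windows around the mismatches show how few letters could place a read at one locus and not at the other, with capitals marking the bases that differ.
Rbpj, transcript bases 553 to 613: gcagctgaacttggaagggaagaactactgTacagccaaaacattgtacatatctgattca
Rbpj-ps3, same stretch: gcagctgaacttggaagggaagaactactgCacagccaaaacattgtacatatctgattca
Rbpj, transcript bases 1192 to 1252: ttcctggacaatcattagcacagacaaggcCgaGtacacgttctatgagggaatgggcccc
Rbpj-ps3, same stretch: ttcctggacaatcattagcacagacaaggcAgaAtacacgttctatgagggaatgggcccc
Rbpj, transcript bases 1331 to 1391: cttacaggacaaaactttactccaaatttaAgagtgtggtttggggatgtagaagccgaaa
Rbpj-ps3, same stretch: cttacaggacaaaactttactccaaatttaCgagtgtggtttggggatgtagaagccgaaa

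Total counts ranged from 2610729 to 3521117 per library. Levels below are CPM, counts scaled to a fixed library size, after TMM scaling, which corrects for library size and composition, and differences are log2 fold changes of L-Pha high against L-Pha low from edgeR. The libraries held RNA of T cells and of other cells of the tumour. The 12 T cell markers took 0.0340% to 0.0855% of counts in L-Pha low and 0.0463% to 0.0728% in L-Pha high, and all 12 had counts. Cd8a had 153 to 625 counts per library and Cd4 had 0 to 4. The 7 melanoma markers, all with counts, took 0.876% to 1.57% in L-Pha low and 1.14% to 1.70% in L-Pha high. The 9 macrophage markers, all with counts, took 0.0133% to 0.0247% and 0.0183% to 0.0300%. The summed shares of T cell, melanoma and macrophage markers overlapped between groups (two-sided p of 0.7, 0.5 and 0.2 by exact permutation, which cannot go below 0.1). T cell shares were lowest, and melanoma shares highest, in L-Pha low 3 and L-Pha high 3.

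Rbpj was higher in L-Pha high cells by close to a doubling. Its 3 L-Pha low libraries stood at 46.3, 47.6 and 44.4 CPM (libraries 1, 2 and 3), and its L-Pha high libraries at 84.7, 101 and 78.3 CPM. The L-Pha low values lay close together, and every L-Pha high library was above them. The means were 46.1 ± 1.62 and 87.9 ± 11.5 CPM (SD, n = 3 each). The log2 fold change was 0.93 (SE 0.229), or 1.91-fold. In summed counts this was 399 in L-Pha low and 887 in L-Pha high, a scaled ratio of 1.91 with an exact 95% binomial interval of 1.69 to 2.15 that covers counting error only. Rbpj (ENSMUSG00000039191) lies on GRCm38 chromosome 5, 53555779 to 53657445, on the plus strand. The 5 dendritic cell markers, all with counts, also stood apart, at 0.000286% to 0.000460% of counts in L-Pha low and 0.000511% to 0.000568% in L-Pha high (exact permutation p = 0.1, two-sided). Few reads lay behind these shares, most of them from Zbtb46, which overlapped between groups with 9, 10 and 9 counts against 17, 15 and 7. Xcr1 did not overlap, with 0, 0 and 0 counts in L-Pha low against 1, 2 and 4 in L-Pha high. The remaining dendritic cell markers overlapped. Of the 9 macrophage markers, C1qa was also higher in every L-Pha high library, at 46.9, 95.9 and 113 CPM in L-Pha low against 124, 118 and 153 CPM (1.55-fold), while the other 8 overlapped. The part of dendritic cell and macrophage transcripts in the Rbpj result was not tested. In bulk RNA, more cells that express a gene and more of its RNA per cell cannot be told apart.

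The pseudogene row showed the same pattern. Rbpj-ps3 (ENSMUSG00000079575) had 47, 57 and 41 counts in L-Pha low against 113, 145 and 114 in L-Pha high. This gave 15.2, 19.8 and 15.3 CPM against 30.1, 43.7 and 38.0 CPM, with the groups apart and a log2 fold change of 1.15 (SE 0.277). Its counts came to 32.9%, 41.6% and 34.5% of those of Rbpj in L-Pha low and to 35.5%, 43.4% and 48.5% in L-Pha high. The counting let a read with several alignments count at each of them, so the 2 rows can hold the same reads and are not separate evidence. For reads in both rows, the locus they came from cannot be told. In each library the Rbpj row held 78 to 205 more counts than the pseudogene row. The Rbpj row thus also held reads that the pseudogene row did not. The sequencing was of 3' mRNA, and the counts do not show where along Rbpj its reads lay. How many fell in the coding stretch shared with the pseudogene was not determined.

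Other ways of handling the shared reads kept the direction. With both rows summed, the log2 fold change of Rbpj was 0.99 (SE 0.225). If every read of the pseudogene row was also counted at Rbpj, subtraction leaves the reads counted at Rbpj and not at the pseudogene. These were 96, 80 and 78 counts in L-Pha low against 205, 189 and 121 in L-Pha high. The log2 fold change of that remainder was 0.79 (SE 0.251). The subtraction was chosen after the data were seen.

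Among the 7 members, Rbpj and Rbpj-ps3 were the 2 whose groups did not overlap, beside 8.41% of all genes. Over all 11183 genes tested, every L-Pha high library was above every L-Pha low library in 4.23% and below in 4.18%. Since the members were picked on this difference, nothing is read from that count.

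**Figure D1:**
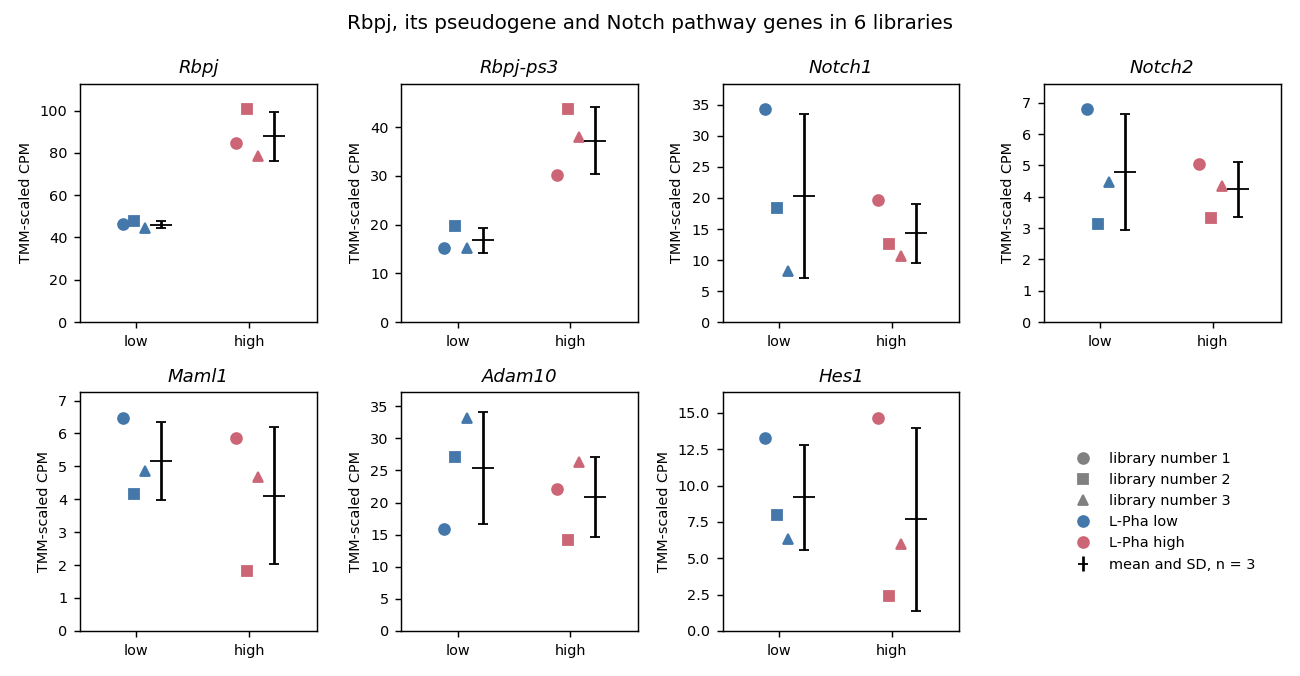
TMM-scaled CPM of the 7 genes in each library (points, shaped by library number) with the mean and SD of each group. Rbpj and Rbpj-ps3 are higher in each of the L-Pha high libraries, and the other 5 genes overlap between groups.

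Within each group, the libraries had the same order by Rbpj as by the share of T cell markers. In L-Pha low, Rbpj ran from 44.4 to 47.6 CPM and the share from 0.0340% to 0.0855%, and in L-Pha high from 78.3 to 101 CPM and from 0.0463% to 0.0728%. Library 3 was lowest and library 2 highest in both groups and by both measures. The part of the T cell share in the Rbpj values was not tested. Set against those markers, Rbpj had 5.41, 4.83 and 13.4 counts per 100 T cell marker counts in L-Pha low 1, 2 and 3. The L-Pha high values were 13.4, 13.3 and 18.0. On this scale the groups overlapped, because L-Pha low 3, the library with the fewest T cell counts, reached the level of L-Pha high 1 and 2. With both libraries numbered 3 left out, the TMM-scaled edgeR log2 fold change of Rbpj, not set against T cell markers, was 0.98. This alternative was chosen after the data were seen. The share of Rbpj RNA that T cells contributed was not determined.

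The Notch1 receptor did not share the higher level of its nuclear partner. Notch1 (ENSMUSG00000026923, chromosome 2, 26457903 to 26516663, minus strand) stood at 34.3, 18.4 and 8.20 CPM in L-Pha low and at 19.7, 12.7 and 10.7 CPM in L-Pha high. The L-Pha low libraries enclosed all 3 L-Pha high libraries, with L-Pha low 1 the highest and L-Pha low 3 the lowest. The log2 fold change was -0.50 (SE 0.436), and the ratio of scaled summed counts was 0.702 (95% counting interval 0.561 to 0.877), which covers counting error only, while the L-Pha low libraries alone ran from 8.20 to 34.3 CPM. Leaving out L-Pha low 1 turned the log2 fold change to 0.11, while dropping L-Pha low 3 or L-Pha high 1 gave -0.87 and -0.80.

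Notch1 was lowest in the libraries with the least T cell RNA. L-Pha low 3 and L-Pha high 3, with 888 and 1305 T cell marker counts, had 22 and 32 counts of Notch1. The other 4 libraries, with 2367 to 2836 T cell marker counts, had 42 to 106. Per 100 T cell marker counts, Notch1 stood at 4.01, 1.87 and 2.48 in L-Pha low, which enclosed the 3.13, 1.68 and 2.45 of L-Pha high. The part of the T cell share in the Notch1 values was not tested. Exons of 2 genes of the opposite strand, 0610009E02Rik and Gm13568, overlap those of Notch1; reads were counted by strand, and these genes had 7 and 2 counts in all.

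**Figure D2:**
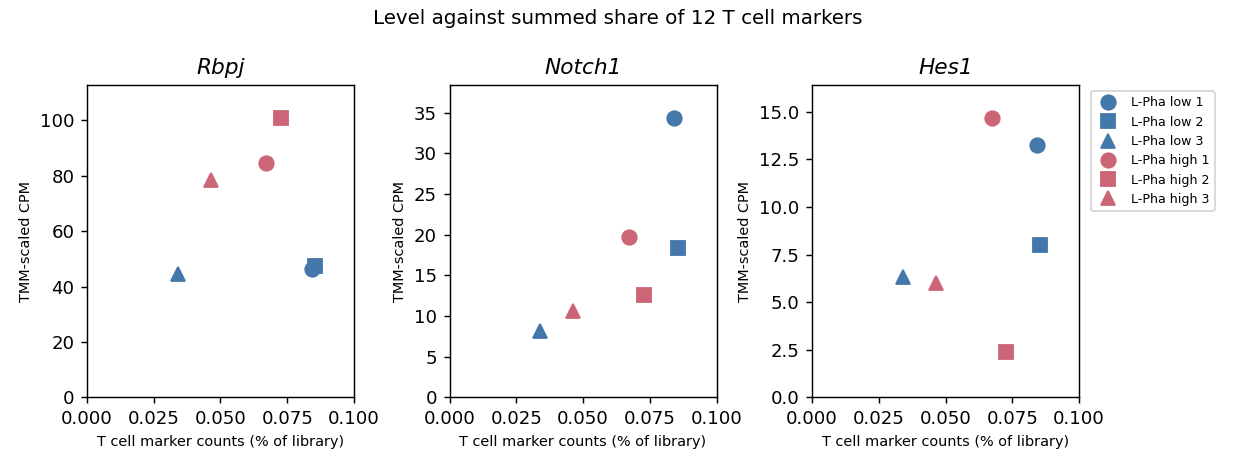
TMM-scaled CPM of Rbpj, Notch1 and Hes1 (vertical axes) against the summed share of 12 T cell markers in each library (horizontal axis, percent of counts). Rbpj splits by group at both low and high shares, while Notch1 is lowest in both libraries numbered 3, which have the lowest shares.

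Notch2, a second receptor that many non-T cells also express, was near the limit of counting. Notch2 (ENSMUSG00000027878, chromosome 3, 98013538 to 98150367, plus strand) had 21, 9 and 12 counts in L-Pha low against 19, 11 and 13 in L-Pha high. These were 6.80, 3.13 and 4.47 CPM against 5.06, 3.31 and 4.33 CPM. Again the L-Pha low libraries enclosed the L-Pha high ones. The log2 fold change was -0.18 (SE 0.474), and 0.16 without L-Pha low 1. The ratio of scaled counts was 0.879 with a 95% interval of 0.561 to 1.38 that covers counting error only.

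Adam10, the protease that starts receptor activation, was variable in both groups. It (ENSMUSG00000054693, chromosome 9, 70678997 to 70780229, plus strand) stood at 15.9, 27.1 and 33.2 CPM in L-Pha low and at 22.1, 14.2 and 26.3 CPM in L-Pha high. The ranges overlapped, and the log2 fold change was -0.28 (SE 0.336). Dropping L-Pha low 3 gave -0.04, and dropping L-Pha low 1 gave -0.53. ADAM10 also cuts many surface proteins other than Notch. Its CPM was highest in L-Pha low 3, the library with the fewest T cell marker counts, and its source among the cells of the tumour was not determined.

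Maml1, the Mastermind coactivator that joins RBPJ and the Notch domain on DNA, had few reads. Maml1 (ENSMUSG00000050567, chromosome 11, 50255634 to 50292311, minus strand) had 20, 12 and 13 counts in L-Pha low against 22, 6 and 14 in L-Pha high. L-Pha high 2 was the lowest library, and the others overlapped. The log2 fold change of -0.32 (SE 0.505) became 0.02 when L-Pha high 2 was dropped and -0.68 when L-Pha high 1 was.

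Hes1, a repressor that Notch signalling induces in many tissues, did not separate the groups. Hes1 (ENSMUSG00000022528, chromosome 16, 30064384 to 30067796, plus strand) stood at 13.3, 7.99 and 6.34 CPM in L-Pha low and at 14.6, 2.41 and 6.00 CPM in L-Pha high. Both libraries numbered 1 were high, and L-Pha high 2 was the lowest with 8 counts. The summed counts were 81 in each group, and the log2 fold change was -0.25 (SE 0.538). Leaving out L-Pha high 2 or L-Pha low 1 turned it to 0.17 or 0.12, and leaving out L-Pha high 1 gave -1.14. Fibroblast markers were likewise lowest in L-Pha high 2, at 0.00209% of counts against 0.00326% to 0.00903% in the others. So were neutrophil markers (0.000174% against 0.000422% to 0.00309%) and mitochondrially encoded transcripts (2.42% against 3.12% to 4.40%). These lists were named after their values were seen, and none of the other marker lists was lowest in that library. No neutrophil marker had more than 2 counts there. The part of any of these lists in the Hes1 values was not tested. Of the 6 other Hes and Hey genes listed, Hes6 alone had enough reads for the test described next, with 20.4, 18.8 and 18.3 CPM in L-Pha low and 20.2, 25.6 and 17.0 CPM in L-Pha high, overlapping (log2 fold change 0.13, SE 0.285, and -0.05 with L-Pha high 2 dropped).

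**Figure D3:**
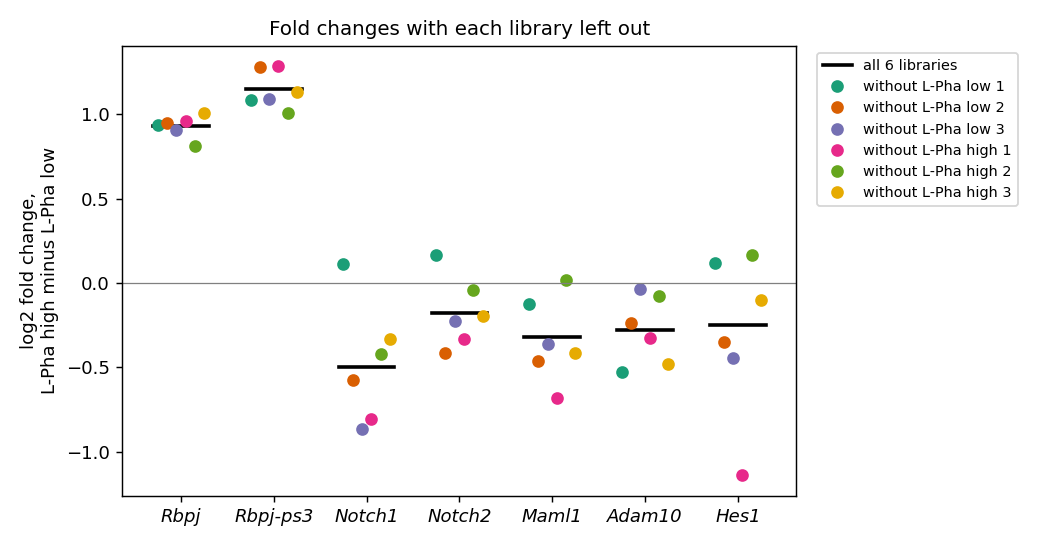
Log2 fold change (L-Pha high minus L-Pha low) of each of the 7 genes with all 6 libraries (bars) and with each library left out (points). Rbpj stays between 0.81 and 1.01, Rbpj-ps3 between 1.01 and 1.28 and Adam10 below 0, while Notch1, Notch2, Maml1 and Hes1 each take both signs.

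The rest of the pathway was read from 80 further genes in lists by role, of which 58 had enough reads to be tested. With edgeR's quasi-likelihood test and Benjamini-Hochberg adjustment over all 11183 genes, 1 of the 58 fell and 0 rose. Over all genes the same test called 0.00894% lower and 0% higher. At an unadjusted p under 0.05, 2 of the 58 were lower and 0 higher, beside 1.97% and 1.82% of all genes, or 3.78% in either direction. DESeq2 called 1 of the 58 lower and 0 higher, and limma-voom 0 in either direction. The gene called by edgeR and by DESeq2 was Tcf7, the only gene that this edgeR test called over all genes. It was also among the 2 at an unadjusted p under 0.05. Tcf7 was put on the list with its difference known, so nothing is read from these counts. Every L-Pha high library was above every L-Pha low library in 1 of the 58 and below in 3, Tcf7 among them. Over all genes these shares were 4.23% and 4.18%. Point values were higher for 25 and lower for 33, with a median log2 fold change of -0.06 beside -0.01 for all genes. With scaling by library totals alone these medians were 0.05 and 0.10. The pathway median was 0.01 without L-Pha low 3.

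**Figure D4:**
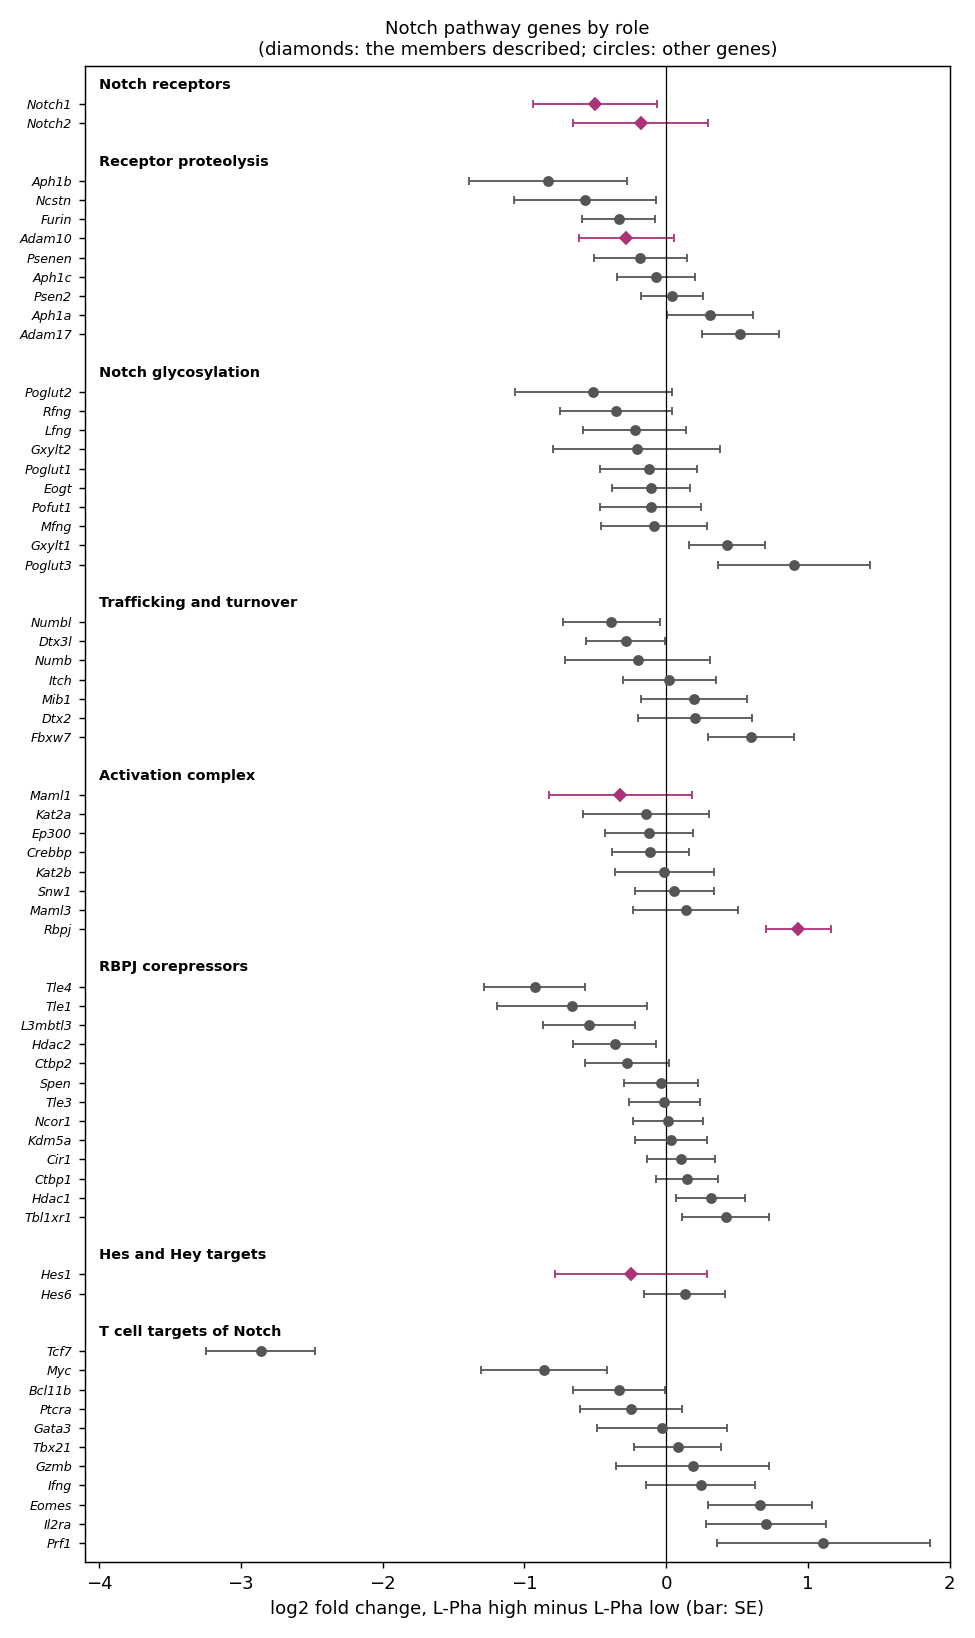
Log2 fold changes (L-Pha high minus L-Pha low, bars are SE) of tested genes in each role list, with 2 genes not shown. Rbpj lies at 0.93 while the other 7 tested genes of the activation complex lie between -0.32 and 0.14, and Tcf7 at -2.86 lies apart from the rest.

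Genes for cutting the receptor went both ways, and none of the 9 tested besides Adam10 passed the test. Adam17, a protease related to Adam10, had the smallest p. It stood at 61.8, 43.1 and 78.3 CPM in L-Pha low and at 69.8, 90.1 and 104 CPM in L-Pha high, overlapping, with a log2 fold change of 0.52 (SE 0.269). Aph1b, which encodes a gamma-secretase subunit, had -0.83 (SE 0.554). The median of these 9 genes was -0.18.

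Enzymes that put sugars on Notch act on O-linked sugars, apart from the branched N-glycans that L-Pha binds. None of the 10 tested passed, 8 lay below 0 and the median log2 fold change was -0.12. Poglut3, an O-glucosyltransferase, had 12.8, 22.3 and 21.3 CPM in L-Pha high and 3.56, 4.86 and 22.0 CPM in L-Pha low. L-Pha low 3 thus stood with the L-Pha high libraries. The log2 fold change of 0.90 (SE 0.536) was 2.15 when that library was dropped and 0.49 when L-Pha low 1 was. Gxylt1, which adds xylose to O-linked glucose, was above in every L-Pha high library at 26.0 ± 4.06 against 19.3 ± 0.500 CPM (log2 fold change 0.43, SE 0.271, edgeR adjusted p = 1.00). Poglut2 had -0.51 (SE 0.552), which ran from -1.001 (L-Pha high 1 dropped) to -0.08 (L-Pha high 2 dropped).

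In the activation complex around RBPJ, point values lay near 0 for the 6 tested genes other than Rbpj and Maml1. Their log2 fold changes ran from -0.14 to 0.14. The histone acetyltransferase genes Crebbp and Ep300 had -0.11 (SE 0.272) and -0.12 (SE 0.311), and Maml3, another Mastermind gene, had 0.14 (SE 0.371). Each of these 3 took both signs when single libraries were dropped, Crebbp from -0.31 to 0.06, Ep300 from -0.35 to 0.01 and Maml3 from -0.05 to 0.43. The median over these 6 genes was -0.06.

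None of the 14 tested corepressor genes passed over all genes, with 7 higher and 7 lower in point value and a median log2 fold change of -0.000704. Tle4, of the Groucho family of corepressors, had the smallest p. It stood at 11.3, 17.7 and 17.5 CPM in L-Pha low and at 5.86, 9.64 and 8.99 CPM in L-Pha high. The groups did not overlap (log2 fold change -0.93, SE 0.354, edgeR adjusted p = 1.00 and unadjusted p = 0.0204). L3mbtl3, which joins RBPJ to a histone demethylase, was also lower in each L-Pha high library, with 9.59, 8.74 and 8.66 CPM there and 13.3, 14.9 and 11.2 CPM in L-Pha low. Its log2 fold change was -0.54 (SE 0.327, edgeR unadjusted p = 0.119).

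Of the genes for receptor trafficking and turnover, 7 were tested and none passed, with a median of 0.02. Fbxw7, which marks the intracellular domain for destruction, averaged 24.2 ± 7.61 CPM in the low and 36.5 ± 8.58 CPM in the high libraries, a log2 fold change of 0.60 (SE 0.303). Numbl, a relative of the Notch inhibitor Numb, had -0.39 (SE 0.343), which was -0.05 with L-Pha low 1 left out and -0.62 with L-Pha high 1 left out. Dtx3l had -0.29 (SE 0.276).

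Genes known as Notch targets in T cells included the 1 that fell. This was Tcf7, which Notch induces in early thymocytes and which marks naive and memory T cells. It had 111, 59 and 52 counts in L-Pha low against 14, 13 and 8 in L-Pha high (log2 fold change -2.86, SE 0.383, edgeR adjusted p = 0.0347). The adjusted p ranged from 5.9e-08 to 0.345 over 15 alternatives and passed in 6. It did not pass without the first or second L-Pha low library (0.115 and 0.217) or any one of the high ones (0.168, 0.345 and 0.224). Nor did it by limma-voom (0.279), by limma on the deposited log2 table (0.209), with library totals alone (0.0612) or with both libraries numbered 3 left out (0.0514). Tcf7 was put on the list with its difference known, so it is not independent evidence on Notch targets.

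The other tested targets did not pass. Myc, a growth regulator, had 14.6, 16.3 and 8.20 CPM in L-Pha low against 11.7, 3.62 and 6.00 CPM (log2 fold change -0.86, SE 0.445). That value was -1.44 with L-Pha high 1 left out and -0.55 with L-Pha high 2 left out. Eomes, a T-box factor of effector and memory CD8 T cells, averaged 16.4 ± 8.20 against 26.1 ± 6.16 CPM (log2 fold change 0.66, SE 0.367), with values of 0.35 to 1.08 when L-Pha low 3 or L-Pha low 1 was dropped. Of the 11 tested targets 6 had higher and 5 lower point values, with a median of 0.08. The highest was Prf1, named after its values were seen, at 1.11 (SE 0.750) with the groups overlapping.

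A further 22 genes of the lists had too few reads to be tested, and those named here were chosen after their counts were seen. The 5 ligand genes Dll1, Dll3, Dll4, Jag1 and Jag2 were all among them. Jag1 had the most reads, at 1, 11 and 6 counts in L-Pha low against 9, 7 and 12 in L-Pha high. Dll3 and Hey2 had no count in any library, which allows up to 3 counts in each. Notch3 had 5 counts in all and Notch4 had 18.

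Dtx1 and Nrarp, a pair of direct Notch targets that feed back on the pathway in lymphocytes, were low in counts and lower in L-Pha high. Dtx1 had 22, 6 and 11 counts in L-Pha low against 3, 6 and 2 in L-Pha high. The libraries numbered 2 had the same count and were kept apart by scaling alone, at 2.08 and 1.81 CPM. The scaled ratio of L-Pha low to L-Pha high was 4.13, with a counting interval of 2.07 to 8.94. Nrarp had 14, 7 and 9 counts against 5, 4 and 5, a ratio of 2.50 (1.28 to 5.09) with the groups apart. Both intervals cover counting error only, not the spread between libraries.

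With no count filter, edgeR gave Dtx1 a log2 fold change of -1.98 (SE 0.721, unadjusted p = 0.00612, adjusted p = 0.693) and Nrarp one of -1.27 (SE 0.741, adjusted p = 0.850). Neither passed over the 21866 genes with a count. Of the 22, 20 had a count, and Dtx1 was the 1 of these 20 at an unadjusted edgeR p under 0.05. Of the 21866 genes, 2.06% were lower and 1.89% higher at that threshold. At the adjusted threshold 0.123% of them were lower. Of the 20 untested genes with a count, 3 were below in every L-Pha high library (Dtx1, Nrarp and Hes5) and 1 above (Notch4). Over all genes with a count the groups were apart in this way in 3.26% and 3.75%. Hes5 had 10 counts in L-Pha low and 3 in L-Pha high.

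**Figure D5:**
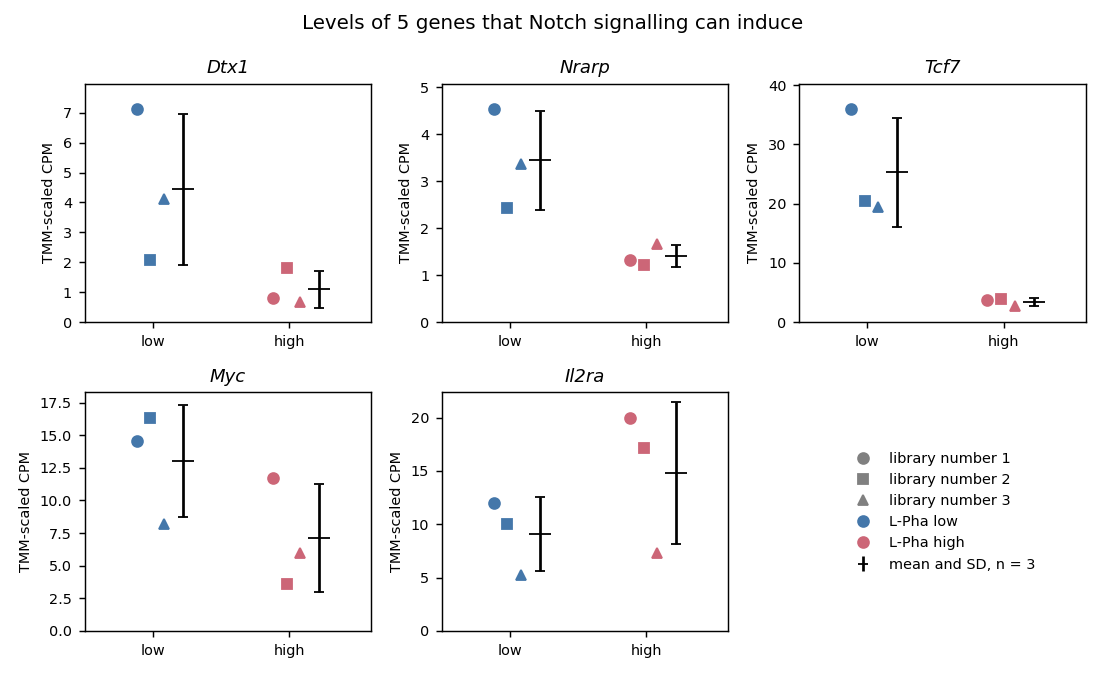
TMM-scaled CPM per library, with the mean and SD of each group, of 5 genes that Notch signalling can induce in T cells. Dtx1, Nrarp and Tcf7 are lower in every L-Pha high library, while Myc and Il2ra overlap. Dtx1, Nrarp and Il2ra were chosen after their values were seen, and Tcf7 was listed with its difference known. Targets not shown have point values in both directions.

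The genes whose levels were most like Rbpj over the 6 libraries were ranked by Pearson's r of log2 CPM among 4535 named genes outside the 7 members with a mean of at least 20 CPM. The 5 highest of these were Wdr90 (r = 0.99), Fdx1 (0.99), Mrpl10 (0.98), Slc35a2 (0.96) and Arl14ep (0.96). These values describe 6 points in 2 groups, with depth and cell mixture that varied between libraries. Like Rbpj, all 5 were higher in every L-Pha high library, a pattern that ranking by likeness to Rbpj favours. Slc35a2, the Golgi transporter of UDP-galactose, had 18.8, 19.1 and 19.0 CPM in L-Pha low and 22.6, 23.2 and 20.7 CPM in L-Pha high. Its difference was much smaller than that of Rbpj, at a log2 fold change of 0.23 (SE 0.268). Wdr90 had 0.73 (SE 0.278), and Fdx1, a mitochondrial electron carrier, had 0.43 (SE 0.224). The other members had r values with Rbpj of -0.55 (Maml1) to -0.20 (Notch1), apart from Rbpj-ps3 at 0.960, between Slc35a2 and Arl14ep.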

How the data were processed

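Whole-number counts of reads in each gene, as deposited by the authors, came from QuantSeq 3' mRNA sequencing of 6 libraries. Per the file headers it was made with featureCounts 1.5.0-p3 on GRCm38 and Ensembl release 78, on the sense strand, counting every alignment of a read and every gene it overlaps. Per the submitters' processing notes, HISAT2 2.1.0, cutadapt 1.7 and Subread 1.5.0 were among the tools used. Those notes name the build hg19, and the table's header, followed here, GRCm38. A second deposited table, of log2 values whose making the sources used here do not describe, served 1 alternative.

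Of 43629 genes, 11183 passed filterByExpr. They were TMM-scaled and tested with edgeR 4.0.16 (quasi-likelihood, robust, group only, two-sided, Benjamini-Hochberg, threshold 0.05; R 4.3.3), after a test on simulated data. SE came from the F statistic. Totals per library ran from 2610729 to 3521117, and reads without molecular identifiers are not independent molecules. The labels name no separate pools, so p-values reflect only how far these libraries differ, which may be technical. Symbols came from GENCODE M21 and, for 2 genes, RefSeq synonyms; all 87 listed symbols matched.

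The members and all lists were chosen with earlier results of these data known. Genes named were the members, in each role list the genes at an unadjusted p under 0.05 or the 3 with the smallest p, genes called over all genes, and the 5 most correlated with Rbpj. Genes chosen after their values were seen are marked so in the text. Values of 2 genes that this rule names are not reported here, and both stay in the counts and medians. Alternatives were other scalings, count filters, DESeq2 1.42.0, limma 3.58.1 (voom, and the log2 table), a block on library number, leaving out libraries, and other handling of the pseudogene. Marker shares were compared by exact permutation. Summed shares of the other marker lists (CD4 T cell, neutrophil, B cell, NK cell, dendritic cell, fibroblast, endothelial) ran from 0% to 0.0119% of counts, and Ly6g had no count. Gm42418, a gene over a ribosomal repeat, took 9.59% to 24.96%.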

Additional observations from a re-analysis of the deposited data

How the results depend on the processing

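The 7 members kept the sign given in the text under every alternative that did not leave out a single library, including the sum of Rbpj with its pseudogene and both libraries numbered 3 left out. Rbpj had log2 fold changes of 0.79 to 1.03 over 18 alternatives and Rbpj-ps3 of 1.01 to 1.28 over 15. Notch2 and Maml1 did not pass the filter of 5 CPM in 3 libraries. Over all genes, edgeR called 20 higher and 27 lower with no count filter, DESeq2 8 and 22, limma on the deposited log2 values 5 and 0, limma-voom 0 and 0, and library totals alone 0 and 0. Leaving out 1 library gave 0 to 1 higher and 0 to 7 lower, with the 1 and 7 without L-Pha low 3, and 0 lower without both libraries numbered 3. Tested pathway genes outside the members numbered 0 lower with library totals alone, limma-voom, the log2 values and both libraries numbered 3 left out, and 0 to 1 with 1 library left out; none was higher in any alternative run. Library titles number the low and high libraries alike, but no label says that equal numbers are a pair. With a replicate block on these numbers, edgeR gave 20 higher and 23 lower genes over all and 1 lower pathway gene. At an unadjusted p under 0.05 from edgeR, 10 of the 58 pathway genes passed with the block and 2 without it. The share of all genes passing in that way with the block was not determined, so nothing is read from this count. Deviations of same-numbered libraries correlated at 0.37, 0.08 and 0.47, and numbers 1 and 3 but not 2 matched their own number best. The fewest reads lay behind Notch2, whose scaled ratio had a counting interval of 0.561 to 1.38, and Maml1, with 0.514 to 1.25.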
